A study of Mus musculus with 4 samples.

Results

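The genes described here are those of the aryl hydrocarbon receptor and of the enzymes that handle the carcinogen DMBA: the receptor gene Ahr, its partner Arnt, the feedback genes Ahrr and Tiparp, and the enzyme genes Cyp1a1, Cyp1b1, Ephx1, Nqo1 and Aldh3a1. They were chosen by symbol, and all 9 are among the 22222 genes of the deposited table. The study sequenced RNA of mouse keratoacanthomas, skin tumours that can regress on their own, raised by 20 weeks of DMBA. The groups were 2 mice collected while still on DMBA (week 0) and 2 other mice collected 1 week after DMBA was stopped, so both groups carried the same history of DMBA. Cells carrying both the Tomato label and surface P-cadherin, called epithelial in the labels, were sorted for RNA. The sources used here do not give the strain, sex or age of the mice, or what drives Tomato.

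DMBA, a polycyclic aromatic hydrocarbon, is a ligand of the aryl hydrocarbon receptor. The receptor waits in the cytoplasm in a chaperone complex, moves to the nucleus when a ligand binds, pairs with the Arnt protein and binds DNA at the core sequence GCGTG, the xenobiotic response element. It induces the cytochrome P450 enzymes that oxidise DMBA, and microsomal epoxide hydrolase then helps turn the products into diol epoxides that attach to DNA. The receptor also induces its own repressors and the detoxifying enzymes encoded by Nqo1 and Aldh3a1. Cyp1b1 is known as the P450 most needed for DMBA to become carcinogenic in mouse tissues outside the liver.

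The promoter windows of Cyp1a1, Cyp1b1, Ahrr and Nqo1 are shown first and were picked by level. The first 3 genes were lowest in on-DMBA replicate 1, Cyp1a1 with only 1 read there against 2 in on-DMBA replicate 2. Nqo1 had its highest level in on-DMBA replicate 1. Each window is the 250 bases before the RefSeq gene start on GRCm38.p6, written in the direction of the gene. Capitals mark GCGTG or, where the core lies on the opposite strand, its complement CACGC.
Cyp1a1: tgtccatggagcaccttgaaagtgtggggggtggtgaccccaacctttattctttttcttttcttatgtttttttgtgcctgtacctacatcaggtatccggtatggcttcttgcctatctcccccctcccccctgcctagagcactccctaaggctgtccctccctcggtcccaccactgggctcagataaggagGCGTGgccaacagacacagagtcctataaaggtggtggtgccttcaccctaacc
Cyp1b1: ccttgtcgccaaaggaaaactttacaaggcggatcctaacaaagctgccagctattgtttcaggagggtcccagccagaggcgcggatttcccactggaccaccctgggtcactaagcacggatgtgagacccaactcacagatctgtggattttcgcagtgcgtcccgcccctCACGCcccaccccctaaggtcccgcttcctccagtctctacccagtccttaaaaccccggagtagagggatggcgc
Ahrr: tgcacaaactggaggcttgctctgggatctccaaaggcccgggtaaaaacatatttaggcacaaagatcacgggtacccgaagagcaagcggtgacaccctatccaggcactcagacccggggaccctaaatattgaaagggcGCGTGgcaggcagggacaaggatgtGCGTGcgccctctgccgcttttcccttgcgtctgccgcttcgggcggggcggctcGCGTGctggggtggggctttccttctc
Nqo1: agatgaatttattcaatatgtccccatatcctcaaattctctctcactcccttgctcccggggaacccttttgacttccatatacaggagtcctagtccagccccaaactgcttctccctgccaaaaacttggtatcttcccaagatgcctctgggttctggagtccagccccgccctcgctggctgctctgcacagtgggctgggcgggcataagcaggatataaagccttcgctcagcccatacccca
The Cyp1a1 window lies at chr9:57697363-57697612 on the plus strand and the others on the minus strand, Cyp1b1 at chr17:79715062-79715311, Ahrr at chr13:74292332-74292581 and Nqo1 at chr8:107403206-107403455. The match begins 54 bases before the start of Cyp1a1 and 76 bases before that of Cyp1b1. The 3 matches of Ahrr begin 107, 82 and 27 bases before the start. The last of these also reads TNGCGTG, the longer form of the element, and overlaps the shorter match. The Nqo1 window holds no GCGTG on either strand.

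Windows were at hand for 7 of the 9 genes, and 5 of them hold GCGTG on either strand, the others being Tiparp and Arnt. Tiparp and Arnt, like Nqo1, had their highest level in on-DMBA replicate 1. Genes with the core were thus among both the lowest and the highest there. Of all 32851 windows of the same length, 28.2% hold it, so the core alone is common. The longer TNGCGTG is in 1 of the 7 windows, that of Ahrr, and in 4.10% of all windows. TGACNNNGC, a core of the antioxidant response element through which NRF2 acts, is in the Arnt window alone among the 7, on each strand and clear of the GCGTG match, and in 10.2% of all windows. Both strands were searched for each motif. These matches describe the letters of a short window and do not show binding.

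The 4 libraries held 5551937 to 9678682 reads, recovered as whole numbers from the deposited values. Levels are given as scaled CPM, the reads of a gene relative to a library size that the submitters scaled, always as on-DMBA replicates 1 and 2 and then 1-week replicates 1 and 2. The libraries did not match their epithelial label to the same degree. The 10 keratinocyte markers, all present in the table, summed to 44814 and 520 under DMBA, compared with 4048 and 3670.4 after 1 week, and all 10 were highest in on-DMBA replicate 1. Cdh3, the gene of the sorted protein P-cadherin, was at 325, 3.23, 42.8 and 30.4, and the integrin gene Itga6 at 976, 206, 269.6 and 292. Krt14 and Krt5, keratins of basal cells, were at 26654, 202, 2644 and 1944 and at 11731, 55.3, 539 and 613. The 8 fibroblast markers, led by Col3a1 and Col1a2, summed to 222 and 40901 in the mice on DMBA against 46577 and 49076 in the 1-week mice, and the 8 myeloid markers, led by Lyz2 and C1qa, to 12.1 and 19616 under DMBA, compared with 8327 and 12835 after 1 week. In on-DMBA replicate 1, 7 of the 8 fibroblast markers and all 8 myeloid markers were lowest, and Cd207, Mcpt4 and Cma1 were the only markers of any list at 0. In bulk RNA, fewer cells of a type and less RNA per cell cannot be told apart.

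**Figure D1:**
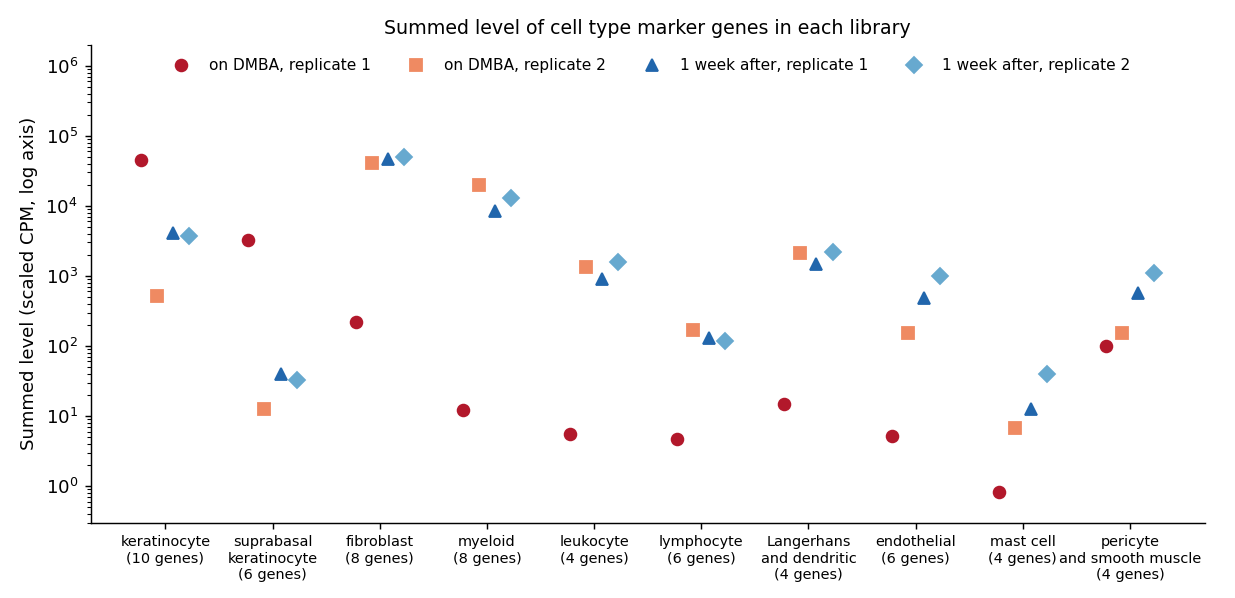
Summed level in scaled CPM (log axis) of the marker genes of 10 cell types in each of the 4 libraries, with 1 point per library. On-DMBA replicate 1 has the highest keratinocyte sums (44814 for the 10 general markers) and the lowest sums of every other cell type, such as 222 for the 8 fibroblast markers.

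Suprabasal markers were highest, and the markers of 6 further cell types lowest in sum, in on-DMBA replicate 1 as well. The 6 suprabasal keratinocyte markers, led by Krt10 and Krt1, summed to 3298 and 12.7 in the mice on DMBA against 39.7 and 32.7 in the 1-week mice. The sums were 5.58, 1356, 890.2 and 1599 for 4 leukocyte markers (Ptprc and Coro1a leading), 14.7, 2093, 1485 and 2198 for 4 Langerhans and dendritic cell markers (Cd74 and Itgax) and 4.63, 171, 129 and 117 for 6 lymphocyte markers (Thy1 and Cd3g). They were 5.11, 155, 491 and 997 for 6 endothelial markers (Pecam1 and Kdr), 101, 152, 563 and 1116 for 4 pericyte and smooth muscle markers (Acta2 and Rgs5) and 0.83, 6.82, 12.5 and 39.8 for 4 mast cell markers (Kit and Cma1). The lymphocyte sum was mostly Thy1 (2.97, 168, 123 and 101), and Cd3g was at 0.24, 0.54, 1.56 and 8.84. Cd3e, Cd3g, Cd2 and Nkg7 were, like Thy1, lowest in on-DMBA replicate 1. Cd79a was lowest in 1-week replicate 2 (0.29). How far the marker differences between libraries go with the results below was not measured, and their part in those results was not tested.

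None of the 9 genes was shown to differ between the groups. Of the 8 that reached 1 scaled CPM in at least 2 libraries, 0 passed limma at an adjusted p under 0.05, where 0% of all 15419 genes tested did. The limma adjusted p was 0.9997 for each of the 8. None of the 8 had an unadjusted p under 0.05 in limma or in edgeR. In DESeq2, which called 0.123% of genes, 0 of the 8 passed and Aldh3a1 alone had an unadjusted p under 0.05 (0.0161, DESeq2 adjusted p 0.918). Limma had 382 genes at an unadjusted p under 0.05 in all, edgeR 271 and DESeq2 564. The median log2 difference, 1 week minus on DMBA, was -0.63 over the 8 genes and -0.02 over all genes tested, with 3 of the 8 above 0 and 5 below. Differences are on the scale of log2(scaled CPM + 0.5), which understates those of low genes.

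The gap between the mice on DMBA exceeded that between the 1-week mice for all 8 tested genes. The libraries differed in this way as a whole: the median absolute log2 gap over 15419 genes was 1.02 on DMBA and 0.51 at 1 week. For Ahr the gaps were close, at -0.81 and -0.77 in log2, replicate 1 minus replicate 2. Between the on-DMBA libraries 5 of the 8 differed by more than 4-fold, where 22.2% of all genes tested did. Nqo1, Aldh3a1 and Ephx1 were more than 4-fold higher in replicate 1, as 8.64% of genes were, and Cyp1b1 and Ahrr were more than 4-fold lower there, as 13.6% of genes were. Between the 1-week libraries 0 of the 8 differed by that much, where 2.3% of genes did. The 3 other tested genes, Ahr, Arnt and Tiparp, lay inside the 4-fold mark in both groups.

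**Figure D2:**
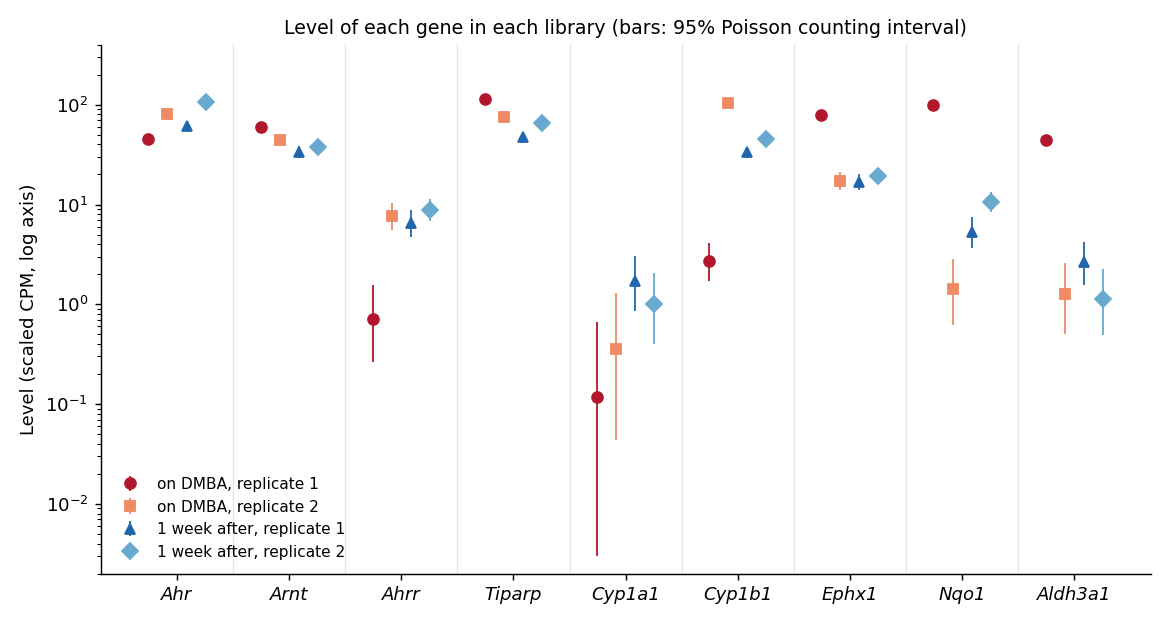
Level in scaled CPM (log axis) of each of the 9 genes in each library, with bars for the 95% Poisson interval of the read count. Cyp1b1 and Ahrr are low in on-DMBA replicate 1 alone (2.73 and 0.71), while Ephx1, Nqo1 and Aldh3a1 are high there alone (79.6, 98.9 and 44.6).

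**Figure D3:**
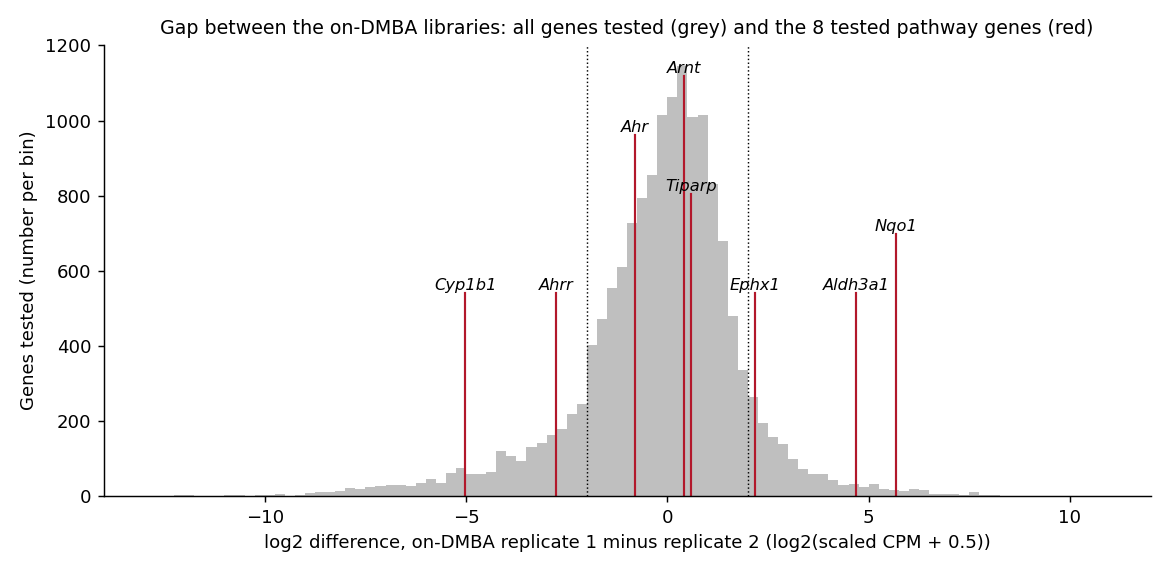
Distribution over the 15419 genes tested of the log2 difference between on-DMBA replicate 1 and replicate 2 (grey, genes per bin), with the 8 tested genes as red lines and dotted lines at the 4-fold mark. Nqo1 lies farthest to the right at 5.68 and Cyp1b1 farthest to the left at -5.02, while Ahr, Arnt and Tiparp lie between the dotted lines.

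The receptor gene Ahr was expressed in every library, at 45.6 and 80.6 scaled CPM under DMBA, compared with 61.4 and 105 after 1 week. The lowest library was on-DMBA replicate 1 and the groups overlapped. The log2 difference was 0.40 (SE 0.58, 95% interval -1.07 to 1.88). Each library held 384 to 738 Ahr reads, so counting error was small beside the gap between mice. Arnt, which encodes the partner that the receptor needs to bind DNA, was at 59.1 and 44.5 scaled CPM in the mice on DMBA against 33.6 and 37.9 in the 1-week mice. Both 1-week libraries lay below both on-DMBA libraries, and the log2 difference was -0.52 (SE 0.50, interval -1.78 to 0.74).

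Ahrr encodes the receptor's repressor, which competes for Arnt and is itself induced by the receptor. It was at 0.71 and 7.72 scaled CPM under DMBA, compared with 6.56 and 8.84 after 1 week. On-DMBA replicate 1 stood alone, with 6 reads against 43, 42 and 62 in the others, and its 95% Poisson interval of 0.26 to 1.55 lay below theirs. Poisson intervals cover counting error only. On-DMBA replicate 2 lay between the 1-week libraries, and the log2 difference of 1.36 (SE 1.09, interval -1.39 to 4.12) was -0.02 without replicate 1. EdgeR gave 0.89 and DESeq2 0.84 with all libraries.

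Tiparp, the other feedback gene, encodes a mono-ADP-ribosyltransferase that restrains the receptor and is among its quickly induced targets. It was at 115 and 76.1 scaled CPM in the mice on DMBA against 47.8 and 64.9 in the 1-week mice. Both on-DMBA libraries lay above both 1-week libraries, with a log2 difference of -0.74 (SE 0.52, interval -2.06 to 0.58). Arnt and Tiparp were the 2 of 8 tested genes whose groups did not overlap. That was so for 9.14% of all genes in this direction and 23.2% in either direction. An exact permutation test of 2 against 2 cannot go below a two-sided p of 0.333 for either gene.

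Cyp1a1, the most inducible P450 gene of the receptor, was near the detection limit in all 4 libraries. It was at 0.12 and 0.36 scaled CPM under DMBA, compared with 1.72 and 1.00 after 1 week, from 1 and 2 reads on DMBA and 11 and 7 at 1 week. Both 1-week libraries lay above both on-DMBA libraries, as was so for 14% of all genes tested. The 95% Poisson interval of on-DMBA replicate 2 (0.04 to 1.30) overlapped both 1-week intervals (0.86 to 3.08 and 0.40 to 2.06). Summed over each group, the 18 reads at 1 week against 3 on DMBA gave a ratio of 6.26. Its exact 95% interval of 1.83 to 33.2 is for counting error only and leaves out the spread between mice. The gene reached 1 scaled CPM in 1 library and was therefore not tested with the others. Without a filter on low values its log2 difference was 1.32 (SE 0.57, limma adjusted p = 0.997 over 21747 genes).

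Cyp1b1, the other P450 that activates DMBA, was at 2.73 and 104 scaled CPM in the mice on DMBA against 33.3 and 45.6 in the 1-week mice. The on-DMBA libraries were thus the lowest and the highest of the 4, 38.2-fold apart, and the 1-week libraries were 1.37-fold apart between them. The reads behind these levels were 23, 581, 213 and 320. The log2 difference was 1.10 (SE 1.64, interval -3.04 to 5.25), whereas edgeR gave -0.44 and DESeq2 -0.49. On the linear scale the mean was higher on DMBA (53.5) than at 1 week (39.5), opposite in sign to the mean of logs. Only 4.28% of genes tested had a wider gap between the on-DMBA mice. The libraries' fibroblast and myeloid marker sums were also lowest in on-DMBA replicate 1, and the myeloid sum was, like Cyp1b1, highest in on-DMBA replicate 2. Lyz2, Csf1r, Emr1, Itgam, C1qa and C1qb were each highest there, but Cd68 and Cd14 were highest in a 1-week library. The fibroblast sum was highest in 1-week replicate 2 (49076) and lower in on-DMBA replicate 2 (40901) than in either 1-week library.

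Ephx1 encodes microsomal epoxide hydrolase, which acts on the epoxides that the P450 enzymes make. It was at 79.6 and 17.2 scaled CPM under DMBA, compared with 16.9 and 19.3 after 1 week. Replicate 1 on DMBA stood alone, and the other 3 libraries lay within the range of 16.9 to 19.3, with overlapping Poisson intervals. The log2 difference was -1.02 (SE 0.84, interval -3.16 to 1.11).

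Nqo1 encodes a quinone reductase that is induced through both the receptor and NRF2. It was at 98.9 and 1.44 scaled CPM in the mice on DMBA against 5.31 and 10.7 in the 1-week mice, from 833, 8, 34 and 75 reads. The 1-week libraries lay between the on-DMBA libraries, which were 68.9-fold apart, and 2.83% of genes tested had a wider gap. The log2 difference was -0.78 (SE 1.88, interval -5.54 to 3.97), whereas edgeR gave -2.57 and DESeq2 -2.62. The keratinocyte marker sum was likewise highest in on-DMBA replicate 1 and lowest in on-DMBA replicate 2. At 1 week the sum was higher in replicate 1 (4048) and Nqo1 in replicate 2, but single markers were divided. Krt5, Krt15, Krt17, Cdh1, Itga6 and Epcam were, like Nqo1, higher in 1-week replicate 2. Krt14, Cdh3, Itgb4 and Trp63 were higher in 1-week replicate 1.

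Aldh3a1 encodes an aldehyde dehydrogenase that belongs to the classical receptor-induced set and is abundant in some surface epithelia. It was at 44.6 and 1.26 scaled CPM under DMBA, compared with 2.66 and 1.14 after 1 week, from 376, 7, 17 and 8 reads. Its log2 difference of -1.97 (SE 1.62, interval -6.07 to 2.14) was the largest in size of the 8 in limma, and edgeR gave -3.47 and DESeq2 -3.51. The low libraries had overlapping Poisson intervals, 0.51 to 2.59 in on-DMBA replicate 2 and 1.55 to 4.25 and 0.49 to 2.25 at 1 week, so no order among them could be read at this depth.

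The sign of the difference for 6 of the 8 tested genes depended on which mouse on DMBA was compared. Ahr, Ahrr and Ephx1 were near 0 without on-DMBA replicate 1, however, and only Cyp1b1 and Nqo1 had differences beyond 1 in both directions. The share of all genes that changed sign was not counted. Without on-DMBA replicate 2, limma called 5 of the 8, where it called 26.7% of all genes. Ahrr at 2.74 and Cyp1b1 at 3.61 were then higher at 1 week, as 15.8% of genes were, and Ephx1 at -2.11, Nqo1 at -3.62 and Aldh3a1 at -4.31 were lower, as 10.9% were. Without on-DMBA replicate 1 it called 0 of the 8, where it called 3.43% of all genes. Cyp1b1 was then at -1.41 (limma adjusted p = 0.214) and Nqo1 at 2.06 (limma adjusted p = 0.103), both opposite to the other fit, and the unadjusted p was under 0.05 for these 2 genes. Ahr, Ahrr, Ephx1 and Aldh3a1 were then between -0.02 and 0.37. Arnt (-0.31 and -0.72) and Tiparp (-0.45 and -1.04) were negative without replicate 1 and without replicate 2 alike, and passed in neither fit. Each of these fits has a lone on-DMBA library, which was assumed to vary like the 1-week libraries.

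**Figure D4:**
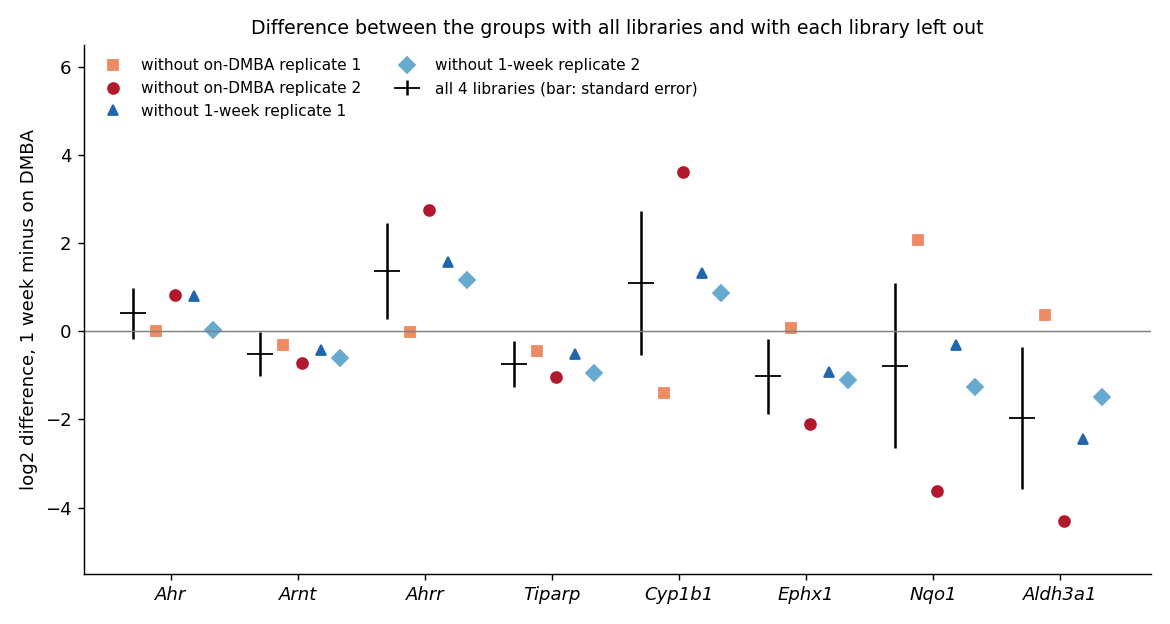
Log2 difference, 1 week minus on DMBA, of the 8 tested genes with all 4 libraries (black, bar for the standard error) and with each library left out in turn (coloured points). For Cyp1b1 and Nqo1 the points without on-DMBA replicate 1 (-1.41 and 2.06) and without replicate 2 (3.61 and -3.62) lie on opposite sides of 0.

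Levels of different genes were compared per kb of exon, with exon lengths from GENCODE M21 on GRCm38, a later build than the submitters' mm9. In on-DMBA replicate 1 Nqo1 led at 63.7 scaled CPM per kb, followed by Ephx1 at 40.8, Tiparp at 26.3 and Aldh3a1 at 23.0. Ahr and Arnt were level at 7.40 and 7.39, and Cyp1b1 at 0.468, Ahrr at 0.0755 and Cyp1a1 at 0.0426 were lowest. In on-DMBA replicate 2 Cyp1b1 at 17.9 and Tiparp at 17.5 led without a gap beyond their counting intervals, ahead of Ahr at 13.1 and Ephx1 at 8.84. The enzyme that led in replicate 1, Nqo1, was at 0.925 there.

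At 1 week both libraries had Ahr, Tiparp and Ephx1 as the 3 highest genes per kb. Ahr was at 9.97 and 17.1 and Tiparp at 11.0 and 14.9, an order that differed between the mice. Ephx1 followed at 8.66 and 9.87, Cyp1b1 at 5.70 and 7.82, Nqo1 at 3.42 and 6.89 and Arnt at 4.20 and 4.74. Nqo1 and Arnt changed places between the 2 mice. Aldh3a1 at 1.37 and 0.588, Ahrr at 0.695 and 0.937 and Cyp1a1 at 0.617 and 0.358 were lowest.

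Ratios of genes within a library do not depend on how the library was scaled. Per kb, Ahr was 1.00 times Arnt in on-DMBA replicate 1, 2.35 times in on-DMBA replicate 2 and 2.38 and 3.60 times at 1 week. Ahr was 98.0 times its repressor Ahrr in on-DMBA replicate 1 and 16.0, 14.3 and 18.2 times in the other libraries. Tiparp was 3.56 and 1.33 times Ahr on DMBA and 1.10 and 0.87 times at 1 week. The groups were apart for Tiparp over Ahr and, by a small margin, for Ahr over Arnt. The share of all gene ratios with the groups apart was not counted. Cyp1b1 was 0.063 and 1.37 times Ahr on DMBA and 0.57 and 0.46 times at 1 week. Cyp1b1 exceeded Cyp1a1 in each library, by 11.0 and 139 times on DMBA and 9.24 and 21.8 times at 1 week, with only 1 and 2 Cyp1a1 reads behind the on-DMBA ratios.

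Of 54 other genes of the pathway, taken from 4 lists, 51 were in the table and 45 were tested. None passed in limma, edgeR or DESeq2, and 0 had an unadjusted p under 0.05 in limma or edgeR and 2 in DESeq2. Their median log2 difference was -0.22, with 15 above 0 and 30 below. The groups did not overlap for 5 genes higher and 8 lower at 1 week, where that was so for 14% and 9.14% of all genes. Genes with separated groups are named below for that reason, after their values were seen. Without on-DMBA replicate 2 limma called 12 of 44, where it called 26.7% of all genes. Without on-DMBA replicate 1 it called 2 of 44, Sult1a1 lower and Gsta4 higher, where it called 3.43% of all genes.

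Among 10 tested partners and chaperones of the receptor, 2 differences were above 0 and 8 below (median -0.51). Hsp90ab1 and Hsp90aa1, the chaperones that hold the receptor ready for ligand, were at 2833, 418, 487 and 700.02 and at 717, 232, 222 and 414 scaled CPM. Their co-chaperone gene Ptges3 was at 419, 104, 78 and 151. All 3 were highest in on-DMBA replicate 1, while the groups overlapped. The coactivator genes Ncoa1 (36.1, 32.5, 20.3 and 20.7) and Ncoa2 (67.8, 56.7, 38.4 and 44.2) and the corepressor gene Nrip1 (86.0, 29.3, 19.5 and 24.8) were lower in both 1-week libraries.

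Among 13 tested genes known as induced by the receptor, beside those above, 5 differences were above 0 and 8 below (median -0.28). The most abundant was Il1b, the gene of an inflammatory cytokine of myeloid cells, at 0.83 and 218 scaled CPM in the mice on DMBA against 344 and 772 in the 1-week mice (log2 difference 4.92, SE 2.35). It was lowest, with 7 reads, in the library where the myeloid markers were lowest. The myeloid sum was highest in on-DMBA replicate 2 (19616), however, where Il1b was below both 1-week libraries. Bach1, a transcriptional repressor, was at 113, 246, 209 and 293, and Nfe2l2, which encodes NRF2, at 283, 101, 82.4 and 144. Besides Il1b, the prostaglandin synthase gene Ptgs2 was higher in both 1-week libraries (52.2 and 44.3 against 105 and 89.1). The glucuronosyltransferase genes Ugt1a6a (8.67 and 6.82 against 3.44 and 5.99) and Ugt1a6b (5.70 and 1.44 against 0.16 and 0.86) were lower in both. Genes of the Ugt1a cluster share exons, so their reads cannot be assigned with certainty.

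The list for the activation of polycyclic hydrocarbons, beside the genes above, had 8 tested genes (median log2 difference between the groups -0.11). None of the 8 differed by more than 4-fold between the on-DMBA libraries, where 22.2% of all genes tested did. Akr1a1, an aldo-keto reductase gene, was at 260, 399.9, 298 and 404. Cyb5r3, the cytochrome b5 reductase gene, was at 144 and 92.8 scaled CPM under DMBA, compared with 160 and 144.1 after 1 week, with the groups just apart. Akr1b8, another aldo-keto reductase gene, was at 71.1 and 54.2 scaled CPM in the mice on DMBA against 169 and 112 in the 1-week mice (log2 difference 1.14, SE 0.52). Por, which passes electrons to every microsomal P450, was at 97.4 and 70.0 scaled CPM under DMBA, compared with 92.7 and 58.1 after 1 week and was added outside the naming rule because the P450 enzymes depend on it.

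Among 14 tested conjugation genes, 5 differences were above 0 and 9 below (median -0.09). Gsto1, a glutathione transferase gene, was at 814, 28.5, 73.9 and 77.9 and Gsta4, which clears lipid aldehydes, at 593, 1.26, 14.4 and 13.5. Both were high in on-DMBA replicate 1 alone, as Nqo1 and Aldh3a1 were. Gstt1 (0 and 2.69 against 5.47 and 8.84) was higher in both 1-week libraries, and Gstm1 (27.4 and 6.46 against 3.91 and 5.42) was lower in both. Ugt1a1 (1.31 and 1.26 against 1.25 and 1.14) was lower in both by a margin too small to read. Its log2 difference was -0.07 (SE 0.70), with 7 reads in its lowest library.

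**Figure D5:**
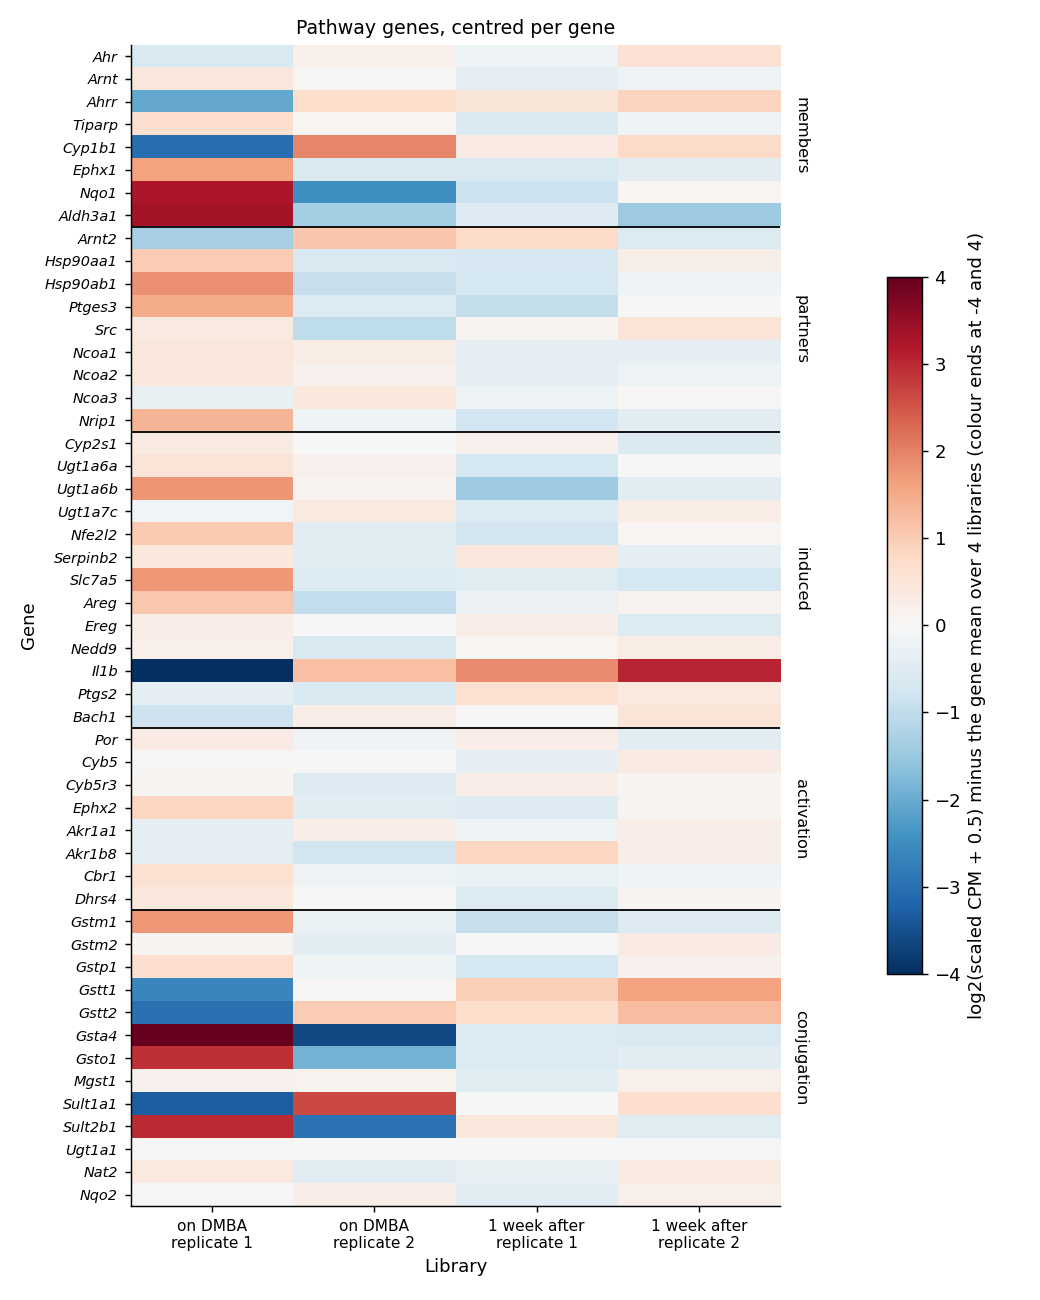
Log2(scaled CPM + 0.5) of 8 of the 9 genes and 43 other tested pathway genes, centred on each gene's mean over the 4 libraries (columns), red above and blue below the mean. Many of the strongest colours are in the column of on-DMBA replicate 1, red for Nqo1, Aldh3a1, Gsta4, Gsto1 and Sult2b1 and blue for Cyp1b1, Il1b, Gstt2 and Sult1a1.

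The genes whose profiles over the 4 libraries were most like those of Ahr, Cyp1b1 and Nqo1 were sought among 11119 others whose mean level reached 5 scaled CPM. Likeness was the root mean square distance between centred log2 profiles, a description over 4 libraries that share their scaling. Nearest to Ahr were Dock6 (0.028), Slc12a7 (0.037) and Oaz2-ps (0.043), and nearest to Cyp1b1 were Dtx4 (0.070), Ptplad2 (0.10) and the chemokine gene Ccl3 (0.12). Ccl3 was at 0.12 and 24.2 scaled CPM in the mice on DMBA against 7.35 and 9.98 in the 1-week mice. Nearest to Nqo1, and less close, were Fxyd3 (0.21), Serpinb10-ps (0.25) and Macc1 (0.26). Fxyd3 was at 79.0 and 0.90 scaled CPM under DMBA, compared with 3.28 and 5.56 after 1 week.

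Some of these read counts could hold reads of other genes. In GENCODE M21, 223 exon bases of Tiparp overlap the opposite-strand pseudogene 4931440P22Rik (1.90, 8.44, 9.53 and 4.71 scaled CPM), 127 of Ahr overlap an opposite-strand noncoding gene and 72 of Ephx1 overlap a pseudogene on its own strand. The libraries kept strand information, per the labels' protocols, but the strand setting used for counting is not given in the sources used here.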

How the data were processed

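RNA of sorted tumour cells from 4 mice was sequenced after ribosomal RNA removal, per the labels' protocols. Per the submitters' processing notes, mm9, edgeR 3.2.3, HTSeq, TopHat2 2.1 and CASAVA 1.8.2 were used, with no role given for any. The authors deposited 1 table with a signal for each gene in each library. They call it CPM, but its columns sum to 867697 to 1149287, so library sizes had been scaled. All values (100%) were whole multiples of a step of 0.119 to 0.179 per read (tolerance 0.01 reads), which gave whole reads. The floor of 3 reads is 0.356 to 0.538 scaled CPM.

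The planned test assumed plain CPM and was kept: limma 3.58.1 (R 4.3.3, variance trend) on log2(signal + 0.5), genes at 1 or more in at least 2 libraries, Benjamini-Hochberg over all 15419 genes. EdgeR 4.0.16 (quasi-likelihood) and DESeq2 1.42.0 were run on the reads. All were run on simulated counts as a check of the code. The check required large changes to be recovered where replicates varied far less than these mice did. It does not show what the fits could detect here. Alternatives were pseudocounts of 0.1 and 1, no filter or a filter of 5, median ratio scaling, equal column totals, no trend, a replicate block and leaving out each library. Mouse identifiers differ for all 4 libraries, and the labels name no batch. P-values measure the spread between these libraries, each from a different mouse, so differences between mice and in their handling cannot be told apart.

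The genes and lists were chosen with earlier results of these data known. Named are the 9 genes, the 3 most abundant tested genes of each pathway list where none passed, the 2 most abundant of each marker list with Cdh3, Krt14 and Itga6, and the 3 nearest profiles to Ahr, Cyp1b1 and Nqo1. Values of 2 pathway genes are not reported here, though counts and medians over the lists include them. Promoter windows are from RefSeq on GRCm38.p6.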

Additional observations from a re-analysis of the deposited data

How the results depend on the processing

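The count of all genes past the threshold, 0 in limma, was 19 in DESeq2, 288 with a replicate block and ranged from 0 to 3894 when a library was left out: 520 without on-DMBA replicate 1, 3894 without on-DMBA replicate 2 and 0 without either 1-week library. The count among the 8 tested genes was 0 to 5 with a library left out and 0 under each other alternative, the replicate block included (7 genes tested with the filter of 5, 9 with no filter). Replicate numbers were not taken as pairs, since the mouse identifiers differ and the labels name no batch. The gaps between replicates 1 and 2 of the groups had a correlation of 0.015 over genes. That value cannot show whether same-numbered libraries shared a batch. Of the alternatives' differences for single genes, 98 kept direction and side of the threshold, 5 passed it and 8 changed sign. Cyp1b1 turned to -0.44 in edgeR and -0.49 in DESeq2. With a library left out, differences ranged from -0.0028 to 0.81 for Ahr, -0.0165 to 2.74 for Ahrr, -0.72 to -0.31 for Arnt, -1.41 to 3.61 for Cyp1b1, -1.04 to -0.45 for Tiparp, -3.62 to 2.06 for Nqo1, -4.31 to 0.37 for Aldh3a1 and -2.11 to 0.0636 for Ephx1. The sign changes came without on-DMBA replicate 1, and the cause was not tested. Equal column totals moved the median of all genes by 0.14, and no sign of the 8 genes changed under either scaling. Depth limits Cyp1a1 throughout and Nqo1, Aldh3a1 and Ahrr where they had under 10 reads.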

Other observations

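Glutathione transferase genes of the alpha and theta classes lay at opposite ends in on-DMBA replicate 1, which was noticed after their values were seen and has no test. Of other classes, Gstm1 (27.4) and Gstp1 (19.1, 10.4, 7.03 and 13.3) were highest in that library. Gstm2 (28.4, 19.4, 25.5 and 32.5) was highest in 1-week replicate 2. Of the alpha class, Gsta1 was at 7.01 scaled CPM in on-DMBA replicate 1 and listed at 0 in the other 3 libraries. Gsta2 was at 6.06 in that library, 0.16 in 1-week replicate 1 and 0 in both others, and Gsta3 at 11.2 there against 0, 0.78 and 0.57. The alpha class genes are similar in sequence, so their reads cannot be assigned with certainty. Of the theta class, Gstt1 was at 0 in on-DMBA replicate 1 and Gstt2 at 0.12, against 2.69 to 8.84 and 7.50 to 11.0 in the others. The sulfotransferase genes differed in the same way: Sult2b1, which acts on sterols in skin, was at 29.9, 0, 4.84 and 2.28, and Sult1a1, which acts on phenols, at 0.83, 80.0, 12.3 and 20.1.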
